A study of Mus musculus with 8 samples.

Results

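Fmr1, the gene for the fragile X messenger ribonucleoprotein FMRP, was examined together with its paralogs Fxr1 and Fxr2 and with Cyfip2, the gene for a protein that binds FMRP, in primary mouse hepatocytes. The members were every probe set that the platform table gives to a listed gene of this family. Of the 5 listed genes 4 were measured, each by 1 probe set, out of 19937 genes in all. Cyfip1 was not analysed here. Fmr1 was chosen by its measured log2 signal, which differed greatly between control arrays and those labelled HO1 knockout. Its values on those arrays are therefore a description. It was tested only between the combined and the HO2 knockdown arrays, whose means do not enter that difference. The spread used in that test was estimated over all arrays, those that led to the choice included. Fxr1, Fxr2 and Cyfip2 were taken for their relation to Fmr1, with earlier results of these data known, and were tested in every comparison.

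The hepatocytes came from livers of male BALB/c mice, by collagenase digestion and a Percoll gradient, and 8 whole-transcript arrays were run in 4 groups of 2. The HO1 knockout group was HO1-/- with a scrambled shRNA, the HO2 knockdown group HO1+/+ with an shRNA against HO2, the combined group HO1-/- with the HO2 shRNA, and the control group HO1+/+ with the scrambled shRNA. HO1 and HO2 are the heme oxygenases, which release carbon monoxide, iron and biliverdin from heme, and the series title asks about the place of carbon monoxide metabolism in circadian transcription. All groups shared lentiviral transduction, puromycin selection for 3 days, a pulse of 1 µM dexamethasone for 30 min and harvest 28 h later. The labels name a single HO2 hairpin, give no age, and call the replicates biological without naming separate animals, so that each p-value reflects only how far these arrays spread. The HO1+/+ mice were littermates of the HO1-/- mice, and genotype and the cell preparation that came with it cannot be told apart.

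FMRP binds messenger RNAs on polyribosomes and mostly holds back their translation. Its loss in people causes fragile X syndrome, and it is best known in neurons, although Fmr1 is transcribed in many tissues. FXR1P and FXR2P, the products of Fxr1 and Fxr2, share its RNA-binding domains and form mixed complexes with it. CYFIP1 and CYFIP2 bind FMRP and are also subunits of the WAVE complex, which passes signals from the small GTPase RAC1 to the actin-nucleating ARP2/3 complex. On build GRCm38.p6, RefSeq places Fmr1 at chrX:68678536-68717963, Fxr1 at chr3:34020058-34069980, Fxr2 at chr11:69632971-69653297 and Cyfip2 at chr11:46193849-46312859.

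The promoters are shown because Fmr1 and its paralogs, which encode closely related proteins, had different signals across these arrays. Each is the stretch of 250 bases before a RefSeq start site on build GRCm38.p6, plus strand, at chrX:68678291-68678540 for Fmr1, chr3:34019829-34020078 for Fxr1 and chr11:69632721-69632970 for Fxr2. Capitals mark the E-box CACGTG, the GC box GGGCGG and the NRF1 motif, which is GCGCA followed directly by TGCGC, searched on both strands.
Fmr1: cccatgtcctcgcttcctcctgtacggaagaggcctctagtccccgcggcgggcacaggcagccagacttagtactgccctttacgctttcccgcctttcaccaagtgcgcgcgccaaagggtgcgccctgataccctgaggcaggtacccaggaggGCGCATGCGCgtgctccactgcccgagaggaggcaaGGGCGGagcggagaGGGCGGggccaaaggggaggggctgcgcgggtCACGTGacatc
Fxr1: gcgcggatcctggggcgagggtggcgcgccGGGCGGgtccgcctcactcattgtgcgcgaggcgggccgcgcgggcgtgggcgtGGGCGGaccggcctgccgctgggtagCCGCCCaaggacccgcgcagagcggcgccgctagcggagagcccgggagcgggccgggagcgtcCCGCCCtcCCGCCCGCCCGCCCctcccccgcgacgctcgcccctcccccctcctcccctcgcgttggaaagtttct
Fxr2: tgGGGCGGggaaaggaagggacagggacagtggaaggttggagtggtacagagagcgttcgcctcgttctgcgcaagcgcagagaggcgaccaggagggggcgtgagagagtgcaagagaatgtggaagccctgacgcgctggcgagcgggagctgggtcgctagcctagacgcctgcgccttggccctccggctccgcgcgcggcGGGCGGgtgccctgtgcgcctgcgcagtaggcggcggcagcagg

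The promoter set gives Fmr1 2 start sites, and the stretch printed ends at the first. The Fmr1 and Fxr1 stretches run slightly past the gene starts given above, so their start sites are not the outermost ones. It held the E-box at 11 to 6 bases before that site, the GC box in 2 places and the NRF1 motif at 93 to 84 bases. Counted from the second start site, the same E-box lay at 52 to 47 bases and the NRF1 motif at 134 to 125 bases. The Fxr1 and Fxr2 stretches held only the GC box among these motifs, in 7 places (some overlapping) and 2 places, and that of Cyfip2 held none. The Cyfip2 stretch, at chr11:46312359-46312608 on the minus strand, lies inside the gene span given above. It therefore does not describe the sequence before the outermost start of Cyfip2. Of all 32851 promoter stretches of this length 6.02% held the E-box, 32.7% the GC box and 0.782% the NRF1 motif. The cyclic AMP element TGACGTCA, in 1.55% of stretches, was found in none of the 4 genes. A match of letters is a description of the sequence and not a bound site. Only exact letters were searched, so near matches to the NRF1 motif, which the Fxr2 stretch holds, were not counted.

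Signal of Hmox2, the target of the hairpin, was lower on all arrays with that hairpin, while Hmox1 signal did not fall with the label HO1-/-. Mean log2 signal of Hmox2 was 11.60 in the HO1 knockout, 8.35 in the HO2 knockdown, 9.29 in the combined and 11.49 in the control group. On the linear scale Hmox2 was at 11.4% of control in HO2 knockdown and 21.8% in combined. Combined against HO2 knockdown, and the interaction, therefore also span unequal Hmox2 signal. The part of that inequality in the members' values was not tested. Mean log2 signal of Hmox1 was 11.97 in the HO1 knockout, 11.55 in the HO2 knockdown, 12.44 in the combined and 11.43 in the control group. Every direction given for HO1 therefore rests on the labels. Across genes, Pearson's r was 0.9967 to 0.9986 between replicates and 0.9746 to 0.9887 between arrays of different groups. Of the 14 hepatocyte markers measured, mean log2 signal lay between 10.97 and 12.52 on all arrays.

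Fmr1 signal was low on all 4 arrays labelled HO1-/- and high on all 4 labelled HO1+/+. Its log2 signal was 7.98 and 7.88 in the HO1 knockout arrays, 10.72 and 10.69 in the HO2 knockdown arrays, 8.04 and 8.00 in the combined arrays, and 10.29 and 10.64 in the control arrays. No array of either genotype came within 2 log2 units of the other genotype. On the linear scale the mean was 17.3% of control in the arrays labelled HO1 knockout and 18.4% in the combined arrays.

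**Figure D1:**
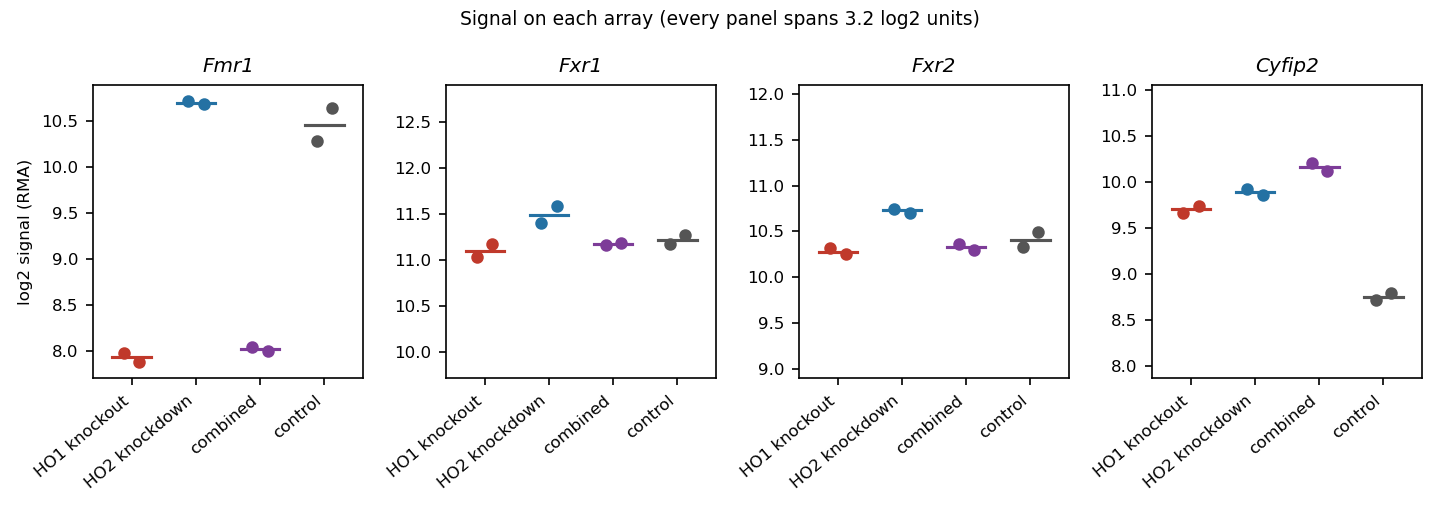
Log2 signal (vertical axis, RMA values) of Fmr1, Fxr1, Fxr2 and Cyfip2 on each array, with points for the 2 arrays of a group and bars for group means. Fmr1 sits near 8 on the 4 arrays labelled HO1-/-, while Fxr1 and Fxr2 move by less than 0.5 between group means and Cyfip2 is lowest in control.

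The combined and the HO2 knockdown arrays share the hairpin and differ in genotype label, but also in mean log2 Hmox2 signal (9.29 and 8.35). Between them Fmr1 fell by 2.68 on the log2 scale (SE 0.095, 95% interval -2.88 to -2.48, limma adjusted p = 4.25e-12, n = 2 each). This left 15.6% of the HO2 knockdown signal, 6.42-fold lower. The difference was -2.53 (SE 0.095) between HO1 knockout and control, the arrays that led to the choice of Fmr1. It was -2.44 (SE 0.095) between combined and control. The difference by genotype under the HO2 hairpin minus that under the scrambled one was -0.15 (95% interval -0.44 to 0.13), given as a description. Probe signals include background, so that log2 differences understate the change of a gene whose lower signal is dim, and the 4 low Fmr1 values lay less than 1 log2 unit above the lowest array median of 7.61.

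With the HO2 shRNA, Fmr1 signal moved little by comparison. The HO2 knockdown arrays averaged 10.70 ± 0.027 and the control arrays 10.46 ± 0.25 (SD, n = 2 each), a difference of 0.24 (95% interval 0.04 to 0.44). That difference rests on control replicate 1, since it was 0.06 without that array and 0.42 without control replicate 2. The combined arrays averaged 8.02 ± 0.027 and the HO1 knockout arrays 7.93 ± 0.072 (SD, n = 2 each), a difference of 0.09 (95% interval -0.11 to 0.29). Both differences and their intervals are a description, as they use arrays that led to the choice of Fmr1. From high to low the group means ran HO2 knockdown, control, combined and HO1 knockout, and the last 2 lay close together. The 4 group means of Fmr1 spanned 2.77 log2 units, and 122 of the 19937 genes had a wider span.

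**Figure D2:**
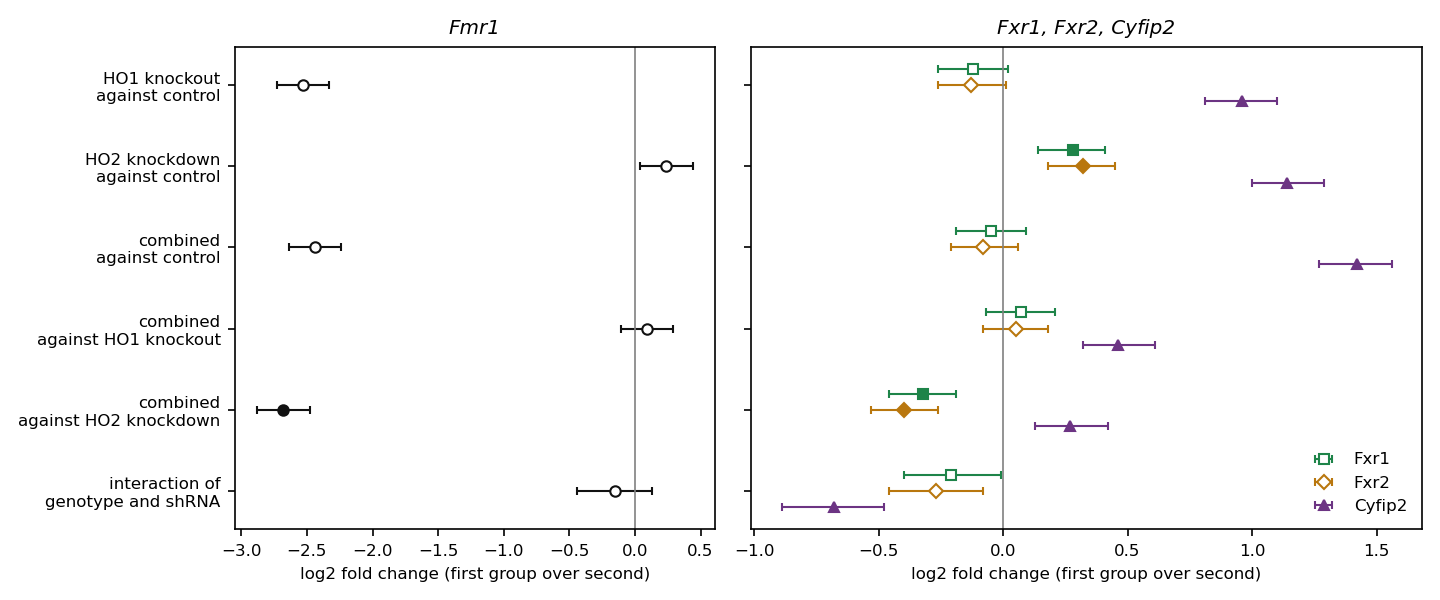
Log2 fold change of each member (horizontal axis, first group over second, the left panel for Fmr1 and the right panel for the others) in the 6 comparisons, with 95% intervals from the limma fit over all 8 arrays. Filled points passed an adjusted p under 0.05, open points did not or, for Fmr1 outside combined against HO2 knockdown, were not tested.

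Fxr1 and Fxr2, whose proteins partner FMRP, were highest in the HO2 knockdown arrays. The log2 signal of Fxr1 was 11.03 and 11.17 in the HO1 knockout arrays, 11.40 and 11.59 in the HO2 knockdown arrays, 11.16 and 11.18 in the combined arrays, and 11.17 and 11.27 in the control arrays. The log2 signal of Fxr2 was 10.32 and 10.25 in the HO1 knockout arrays, 10.75 and 10.70 in the HO2 knockdown arrays, 10.36 and 10.30 in the combined arrays, and 10.33 and 10.49 in the control arrays. For both genes the HO2 knockdown arrays lay above all the others, and the remaining 3 groups lay close together.

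Against control, the HO2 knockdown raised Fxr1 by 0.28 (SE 0.065, limma adjusted p = 0.00382) and Fxr2 by 0.32 (SE 0.063, adjusted p = 0.000992), or 1.21-fold and 1.25-fold. All 3 members tested in this comparison rose, Cyfip2 included, where 33.2% of all genes were called (16.5% higher and 16.7% lower). Without HO2 knockdown replicate 2 the change of Fxr1 was 0.18 and no longer passed (adjusted p = 0.0794, with 0.000661 to 0.0794 over the alternatives tried). In cells labelled HO1-/- the same hairpin gave 0.07 for Fxr1 (95% interval -0.07 to 0.21) and 0.05 for Fxr2 (95% interval -0.08 to 0.18), and neither passed.

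In HO1 knockout against control, Fxr1 differed by -0.12 (95% interval -0.26 to 0.02, limma adjusted p = 0.312) and Fxr2 by -0.13 (95% interval -0.26 to 0.01, adjusted p = 0.235). Of the 3 members tested there 1 passed, Cyfip2, against 12.8% of all genes (5.62% higher and 7.2% lower). Between the combined and the HO2 knockdown arrays Fxr1 fell by 0.32 (SE 0.065, adjusted p = 0.00131) and Fxr2 fell by 0.40 (SE 0.063, adjusted p = 0.000193). The combined arrays thus held 79.8% of the Fxr1 and 76.0% of the Fxr2 signal of the HO2 knockdown arrays, where 15.6% of Fmr1 was left. All 4 members passed in this comparison, 3 lower and 1 higher, and 34% of all genes were called (13% higher and 21% lower). The difference between the effects of genotype under the 2 hairpins was -0.21 for Fxr1 (limma interaction, adjusted p = 0.157) and -0.27 for Fxr2 (adjusted p = 0.0631), so it was not called. For Fxr2 it passed without control replicate 2 (-0.34, adjusted p = 0.0137, with 0.0137 to 0.205 over the alternatives tried). Against control, the combined arrays differed by -0.05 for Fxr1 (95% interval -0.19 to 0.09) and -0.08 for Fxr2 (95% interval -0.21 to 0.06), and of the 3 members tested only Cyfip2 passed (29.9% of all genes were called, 11.6% higher and 18.3% lower).

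Cyfip2, whose protein binds FMRP and is also a WAVE subunit, rose in every group relative to control. Its log2 signal was 9.67 and 9.74 in the HO1 knockout arrays, 9.93 and 9.86 in the HO2 knockdown arrays, 10.21 and 10.12 in the combined arrays, and 8.72 and 8.79 in the control arrays. No groups overlapped, and the combined arrays were the highest. Relative to control it was 0.96 higher in the arrays labelled HO1 knockout (SE 0.068, limma adjusted p = 3.63e-08), 1.14 higher in HO2 knockdown (SE 0.068, adjusted p = 2.95e-09) and 1.42 higher in combined (SE 0.068, adjusted p = 1.3e-10). These are 1.94-fold, 2.21-fold and 2.67-fold on the linear scale, and the 3 comparisons share the control arrays.

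The change of Cyfip2 with both perturbations was smaller than the sum of the separate changes. The interaction was -0.68 (SE 0.096, 95% interval -0.89 to -0.48, limma adjusted p = 0.000265), where 12.2% of all genes were called (4.67% higher and 7.57% lower) and 1 of the 3 tested members passed. In cells labelled HO1-/- the HO2 shRNA raised Cyfip2 by 0.46 (SE 0.068, adjusted p = 8.61e-05), and it was the only one of the 3 tested members to pass there (23% of all genes were called, 10.2% higher and 12.8% lower). Under the HO2 shRNA the arrays labelled HO1-/- were 0.27 higher (SE 0.068, adjusted p = 0.00583). That last difference did not pass without HO2 knockdown replicate 2 (0.24, adjusted p = 0.0585) or without combined replicate 1 (0.23, adjusted p = 0.0773), with a range of 0.000434 to 0.0773 over the alternatives tried.

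Macrophage transcripts moved with the genotype label, as Fmr1 did in the opposite direction. Of the 20 Kupffer cell and macrophage markers measured, 14 rose and 1 fell in the arrays labelled HO1 knockout against control, with a median log2 fold change of 2.32. Of all genes 5.62% were higher and 7.2% lower there. The marker that fell was Vsig4 (-1.07), and Clec4f, Marco, Cd163, Timd4 and Cx3cr1 were not called, so the rise did not cover the whole list. In combined against HO2 knockdown 16 rose and 0 fell (median 2.54), where 13% of all genes were higher and 21% lower. Their summed linear signal, divided by 1000, was 37.1 to 37.7 in the HO1 knockout arrays, 3.78 to 4.12 in the HO2 knockdown arrays, 38.4 to 39.9 in the combined arrays and 4.06 to 4.22 in the control arrays. Their part in the Fmr1 difference was not tested. In bulk RNA, fewer cells of a type and less RNA per cell cannot be told apart. With the HO2 shRNA in HO1+/+ cells, where Cyfip2, Fxr1 and Fxr2 rose, 0 macrophage markers rose and 2 fell (median -0.07), or 1 and 3 after quantile normalization. Of all genes 16.5% were higher and 16.7% lower in that comparison.

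Markers of other cell types differed less with the genotype label, by their medians. Of the 12 stellate cell and fibroblast markers 0 rose and 8 fell in the arrays labelled HO1 knockout against control (median -0.36). Of all genes 5.62% were higher and 7.2% lower there. In combined against HO2 knockdown 2 rose and 7 fell (median -0.23), where 13% of all genes were higher and 21% lower. Hepatocyte markers rose with the HO2 shRNA in HO1+/+ cells, 13 of 14 with a median of 1.00 (16.5% of all genes were higher), in the comparison in which Fxr1, Fxr2 and Cyfip2 rose. In combined against HO1 knockout 12 of the 14 rose (median 0.62, with 10.2% of all genes higher), a comparison in which Cyfip2 rose and Fxr1 (0.07) and Fxr2 (0.05) did not pass. With the genotype label, 10 of the 14 rose and 0 fell in HO1 knockout against control (median 0.35), while 6 rose and 1 fell in combined against HO2 knockdown (median 0.09), or 4 and 2 with arrays centred on their medians. Wherever a list has a count of 0 here without another scaling, limma at an unadjusted p under 0.05 also gave 0 in that direction. The 10 sinusoidal endothelial markers had medians of 0.15 in HO1 knockout against control and 0.36 in combined against HO2 knockdown, and the 5 cholangiocyte markers -0.03 and 0.11. The part of these cell types in the members' values was not tested.

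Genes next to Fmr1 on the X chromosome did not share the size of its difference. RefSeq annotates 167 genes within 5 Mb of Fmr1, and 54 of them were measured. In the arrays labelled HO1 knockout against control 1 rose and 4 fell (9.26% called, against 12.8% of all genes), with log2 fold changes from -0.65 to 0.20. In combined against HO2 knockdown 3 rose and 9 fell (22.2%, against 34% of all genes), from -0.53 to 0.34. Fmr1, at -2.68 in combined against HO2 knockdown, lay outside that range. Most of the 54 genes, and all those towards lower coordinates, had mean log2 signals below the lowest array median of 7.61. A fall of the size of that of Fmr1 could have been missed in them, so ranges and shares describe mainly dim probe sets.

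The antisense gene Fmr1os, 0.137 kb from Fmr1, had log2 signals of 4.28 and 4.32 in the HO1 knockout arrays and 4.34 and 4.29 in the control arrays. Fmr1nb, 43.9 kb away on the other side, had 5.95 and 5.85 in the HO1 knockout arrays and 6.08 and 5.87 in the control arrays. Neither passed in combined against HO2 knockdown, with log2 fold changes of -0.05 (limma adjusted p = 0.628) for Fmr1os and 0.13 (adjusted p = 0.328) for Fmr1nb. Both signals were far below the array medians, so a change in them could have been missed. The next genes measured towards lower coordinates were the miRNA genes Mir547 and Mir201, at 0.10 (adjusted p = 0.357) and -0.04 (adjusted p = 0.689) in the same comparison.

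Aff2, 642 kb away, is the gene of another fragile X-linked site in people and encodes a nuclear protein of the AF4 family. Its log2 signal was 7.67 and 7.66 in the HO1 knockout arrays, 8.97 and 9.05 in the HO2 knockdown arrays, 8.87 and 8.79 in the combined arrays, and 8.22 and 8.40 in the control arrays. It fell by 0.65 in the arrays labelled HO1 knockout against control (limma adjusted p = 6.81e-05) and rose by 0.70 with HO2 knockdown (adjusted p = 1.14e-05). Between combined and HO2 knockdown it differed by -0.18 and did not pass (adjusted p = 0.134). Ids, the gene of the lysosomal enzyme iduronate 2-sulfatase, was at 0.20 (adjusted p = 0.0393) in the first of these comparisons and -0.02 (adjusted p = 0.833) in the last.

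**Figure D3:**
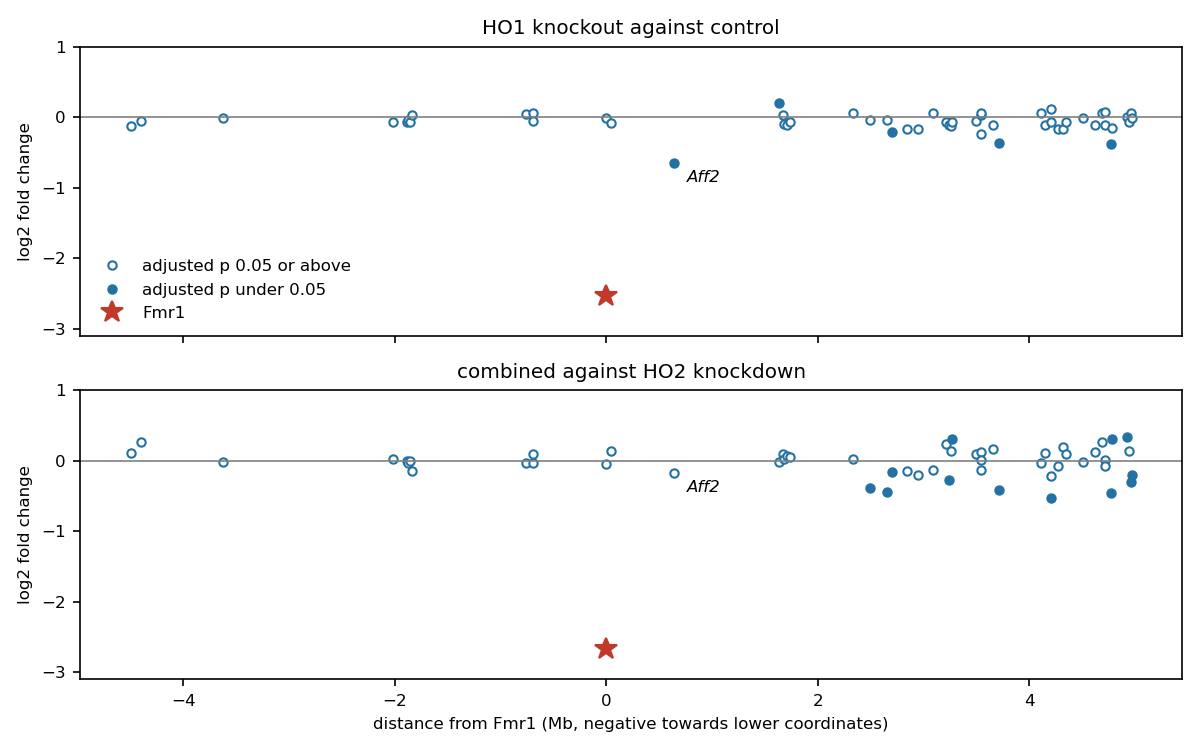
Log2 fold change (vertical axis) of the 54 measured genes within 5 Mb of Fmr1 against their distance from it in Mb, for HO1 knockout against control (top) and combined against HO2 knockdown (bottom). Fmr1 (star) lies at -2.53 and -2.68, below all its neighbours, the lowest of which are at -0.65 and -0.53.

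The genes whose pattern was most like that of Fmr1 were found by Pearson's r over the 8 arrays among 984 named genes whose group means spanned at least 1 log2 unit. The highest were Obp2a, an odorant-binding protein gene (r = 0.993), Bmp10, a bone morphogenetic protein gene (0.991), Lrrc32, whose product holds latent TGF-beta on the cell surface (0.975), Ppfibp2, a liprin gene (0.972), and the major urinary protein gene Mup3 (0.966). Of these Obp2a had the widest span, with mean log2 signals of 7.51 in HO1 knockout, 11.96 in HO2 knockdown, 7.30 in combined and 11.20 in control. Bmp10 had 7.02, 8.10, 7.05 and 8.05 in the same order, so both had low signal under the HO1-/- label. The most opposite were Tyrobp, a signalling adaptor of myeloid receptors (-0.998), the Toll-like receptor gene Tlr13 (-0.998) and Hcls1, an actin regulator of blood cells (-0.998). The arrays fall into 2 sets by genotype label, so these r values mostly reflect the difference between the sets, and 7 genes had an r over 0.95.

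**Figure D4:**
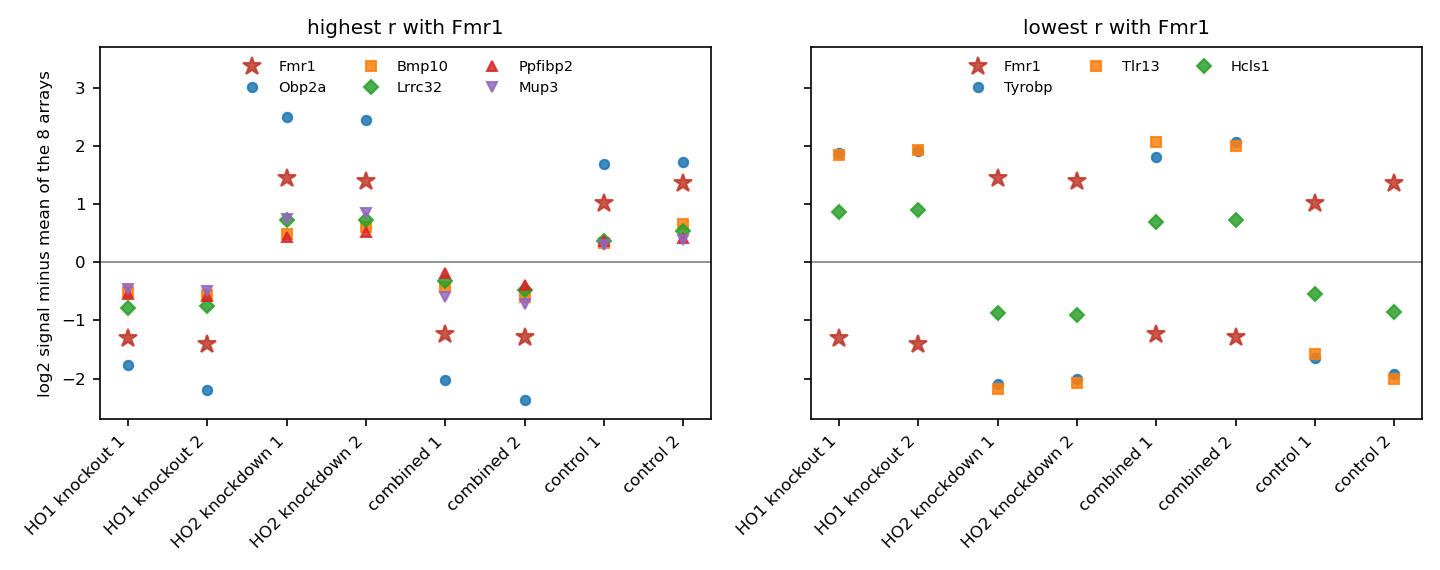
Log2 signal minus the mean of the 8 arrays (vertical axis) for Fmr1 and the 5 genes of highest r (left) and the 3 of lowest r (right), array by array. Fmr1 and the left-hand genes are below their means on the HO1 knockout and combined arrays and above them on the others, and the right-hand genes run the other way.

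Partners of FMRP in messenger ribonucleoprotein particles changed modestly. Of 18 measured, 0 rose and 1 fell in the arrays labelled HO1 knockout against control (median log2 fold change -0.10, against -0.041 over all genes, of which 12.8% were called). The 1 that fell was Ranbp9, a scaffold protein gene, at -0.26 (SE 0.049, limma adjusted p = 0.00147). In combined against HO2 knockdown 1 rose and 9 fell (median -0.17, against 0.022), where 13% of all genes were higher and 21% lower. Among them were Atxn2, the ataxin 2 gene (-0.60, adjusted p = 6.37e-07), Ranbp9 (-0.37, adjusted p = 4.02e-05) and Caprin1, a cell cycle and stress granule RNA-binding protein gene (-0.23, adjusted p = 0.000511). Like Fxr1 and Fxr2, Atxn2 was highest in the HO2 knockdown arrays, with log2 signals of 10.78 and 10.90 in HO1 knockout, 11.56 and 11.50 in HO2 knockdown, 10.92 and 10.94 in combined, and 10.94 and 10.95 in control. In HO2 knockdown against control 5 partners rose and 6 fell (median 0.02), where 33.2% of all genes were called. That balance rests on scaling, since 6 rose and 2 fell with arrays centred on their medians. After quantile normalization 3 fell in HO1 knockout against control, in place of 1.

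Translation and miRNA genes, through which FMRP acts on its messages, went in more than a single direction. Of 12 genes listed under cap-dependent initiation, inhibitors of eIF4E included, 0 passed between HO1 knockout and control, where 12.8% of all genes were called. In combined against HO2 knockdown 0 rose and 8 fell (median -0.15, against 0.022 over all genes, of which 21% were lower). After quantile normalization 5 fell, in place of 8. Among the 8 was Pabpc1, the poly(A)-binding protein gene (-0.30, limma adjusted p = 2.9e-05). The 8 also held the inhibitor gene Eif4ebp2 (-0.15, adjusted p = 0.0493), so their count gives no direction for initiation itself. With HO2 knockdown against control 3 rose and 1 fell (0 fell with arrays centred and 2 after quantile normalization, and 33.2% of all genes were called), with Mknk2, a kinase of eIF4E, at 0.99 (adjusted p = 3.22e-09) and Eif4ebp2, an inhibitor of eIF4E, at 0.85 (adjusted p = 7.11e-09). Of 10 miRNA effector genes 0 rose and 1 fell in HO1 knockout against control (12.8% of all genes were called), the helicase gene Mov10 (-0.30, adjusted p = 0.00317). In combined against HO2 knockdown 1 rose and 4 fell, among them Tnrc6b, which recruits deadenylases (-0.40, adjusted p = 0.000266), and the Argonaute genes Ago3 (-0.35, adjusted p = 0.00273) and Ago1 (-0.24, adjusted p = 0.0119). That lean towards lower rests on scaling, since 0 rose and 5 fell with arrays centred on their medians but 2 rose and 2 fell after quantile normalization, and 13% of all genes were higher and 21% lower.

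Among the other WAVE subunits, the ARP2/3 complex and RAC proteins, with which CYFIP2 works, the blood cell forms stood out by their values. Of 17 measured, 4 rose and 1 fell in the arrays labelled HO1 knockout against control (median 0.06), where 12.8% of all genes were called. In combined against HO2 knockdown 5 rose and 2 fell (median 0.06), where 34% of all genes were called (13% higher and 21% lower). Nckap1l, the hematopoietic counterpart of the WAVE subunit gene Nckap1, had log2 signals of 10.96 and 10.86 in HO1 knockout, 6.89 and 7.14 in HO2 knockdown, 10.54 and 10.56 in combined, and 7.59 and 7.24 in control. It was 3.54 higher in combined than in HO2 knockdown (limma adjusted p = 6.09e-13), and the hematopoietic GTPase gene Rac2 was 1.99 higher (adjusted p = 2.26e-10). Nckap1 itself fell by 0.25 in that comparison (adjusted p = 0.000766), and Rac1 was at 0.01 (adjusted p = 0.865). Macrophage markers rose in the same comparison, as given above, and their part was not tested.

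With HO2 knockdown against control, where Cyfip2 rose by 1.14, 2 of these 17 genes rose and 3 fell (median -0.03, against -0.066 over all genes, of which 33.2% were called). The split was 2 and 2 with arrays centred on their medians and 1 and 5 after quantile normalization. The ARP2/3 subunit gene Arpc1b was at -0.35 (limma adjusted p = 6.1e-06), the WAVE subunit gene Abi1 at 0.23 (adjusted p = 0.00195) and Nckap1l at -0.40 (adjusted p = 0.00877). Cyfip2 thus moved by more than any of these 17 genes in this comparison.

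Messages known from brain as FMRP targets, whose translation more than level FMRP is thought to set, had no common direction. Of 18 measured, 0 rose and 3 fell in the arrays labelled HO1 knockout against control (median -0.11, against -0.041 over all genes). Of all genes 5.62% were higher and 7.2% lower there, and with arrays centred on their medians 2 of the 18 fell. The 3 that fell as reported were Map1b, a microtubule protein gene (-0.47, limma adjusted p = 3.87e-05), the diacylglycerol kinase gene Dgkk (-0.52, adjusted p = 0.00519) and the neurofibromin gene Nf1 (-0.25, adjusted p = 0.0239). Dgkk was dim, below the lowest array median of 7.61 on every array. In combined against HO2 knockdown 4 rose and 3 fell (median 0.09, against 0.022), near the 34% called over all genes. Among them were the matrix metalloproteinase gene Mmp9 at 1.10 (adjusted p = 3.02e-09), Sod1 at 0.39 (adjusted p = 1.07e-05) and Tsc2, which restrains mTOR, at -0.42 (adjusted p = 3.75e-05). The split there was 2 and 3 with arrays centred on their medians. In HO2 knockdown against control 3 rose and 7 fell, where 33.2% of all genes were called, with Mmp9 at -1.64 (adjusted p = 2.43e-11).

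Factors that bind or methylate the Fmr1 promoter were mostly not called with the genotype label. Of 11 measured, 0 rose and 1 fell in the arrays labelled HO1 knockout against control (median -0.05, with 12.8% of all genes called), the AP-2 alpha gene Tfap2a (-0.33, limma adjusted p = 0.0484). Tfap2a was dim, below the lowest array median of 7.61 on every array. Nrf1, whose motif stands in the promoter printed above, was at -0.03 (adjusted p = 0.879), and Usf1 and Usf2, factors of the E-box, were at -0.14 (adjusted p = 0.446) and 0.02 (adjusted p = 0.931). In combined against HO2 knockdown 3 rose and 1 fell of the 11, near the 34% called over all genes, among them Max, another E-box factor (-0.39, adjusted p = 9.13e-05), and the DNA methyltransferase genes Dnmt1 (0.26, adjusted p = 0.00662) and Dnmt3a (0.24, adjusted p = 0.0228). With arrays centred on their medians 1 rose and 1 fell instead. In HO2 knockdown against control Dnmt1 was at -0.75 (adjusted p = 3.3e-07), where Fmr1 differed by 0.24.

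**Figure D5:**
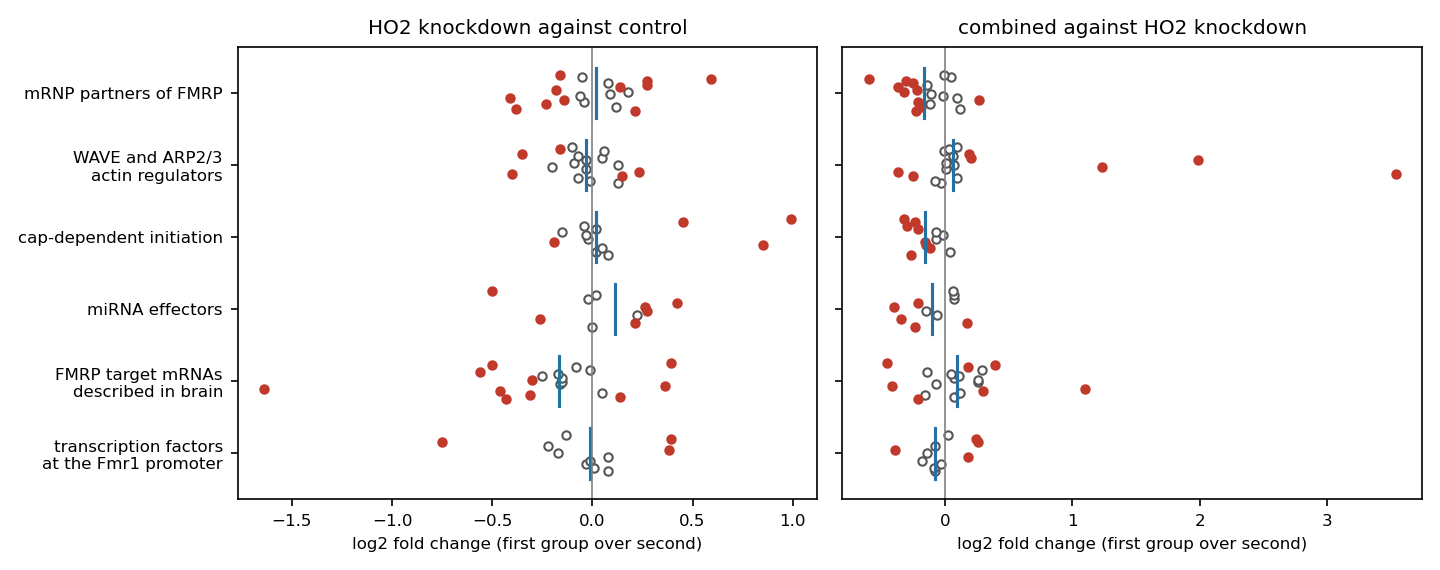
Log2 fold change (horizontal axis, first group over second) of each measured gene of the 6 lists around Fmr1 (rows) in HO2 knockdown against control (left) and combined against HO2 knockdown (right). Red points passed an adjusted p under 0.05, open points did not, blue bars are list medians, and the far points on the right are Nckap1l at 3.54 and Rac2 at 1.99.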

How the data were processed

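Total RNA of 8 samples, 300 ng each, was measured on whole-transcript arrays, as the labels' protocols state. The authors deposited log2 signals of probe sets, and the submitters' processing notes list RMA, affy and R 2.15.0. The sources used here give neither chip definition nor build. Of 34760 probe sets 21640 had 1 gene symbol, 1321 had several and 11799 none. The brightest over all arrays stood for each of the 954 genes with several, leaving 19937 genes, of which 19855 matched RefSeq (GRCm38.p6) by gene ID. Promoters came from RefSeq.

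All 8 arrays entered a single limma 3.58.1 fit under R 4.3.3, with a mean for each of the 4 groups, a mean-variance trend, 4 residual and 11.2 prior degrees of freedom. The 6 comparisons were tested two-sided with Benjamini-Hochberg adjustment over all genes and called at an adjusted p under 0.05. SE is the moderated standard error. Alternatives covered the variance trend, array weights, scaling, dim genes, probe sets, threshold, replicate block and each array left out. The fit was tested on simulated data. Depth does not apply to arrays, and their number limits the precision. Members and gene lists were chosen with earlier results of these data known. Named genes are the members, Hmox1, Hmox2, the 5 most like and 3 most opposite genes, the 3 nearest measured neighbours on each side of Fmr1, and the 3 list members of smallest p per comparison, of which some are given. Members named beside these (Nckap1, Rac1, Nrf1, Usf2) were chosen after their values were seen.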

Additional observations from a re-analysis of the deposited data

Results flagged for a closer look

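The effect of the HO1 genotype label on Cyfip2 differed between the 2 hairpins. Cyfip2 was 0.27 higher on the log2 scale in combined than in HO2 knockdown, against 0.96 higher in HO1 knockout than in control, and the test of that difference, the interaction in the limma fit, gave -0.68 (adjusted p = 0.000265, range over the alternatives 0.000156 to 0.0146). The group means were 9.71 in HO1 knockout, 9.90 in HO2 knockdown, 10.17 in combined and 8.75 in control. Hmox2 signal also differed between combined and HO2 knockdown, and its part was not tested.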

How the results depend on the processing

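Over 9 alternatives and the 8 arrays left out in turn, the fall of Fmr1 in combined against HO2 knockdown ranged from -2.74 to -2.63 and passed each time. Of 408 values of single members under these settings 394 kept direction and call or lay within the replicate spread, 7 of Fmr1 moved beyond that spread, 3 lost and 2 gained a call, and 2 near 0 changed sign. These were Fxr1 in combined against control (-0.10 to 0.0028 with an array left out, the upper end without control replicate 2) and the Fmr1 interaction (-0.33 to 0.025, the upper end without control replicate 1). Many of the 408 fold changes could not move, since most settings, and leaving out an array outside the comparison, do not alter them. Where Fmr1 was not tested it was labelled by fold change alone, so the 394 overstates how far the results were tried. Members called for the interaction numbered 2 in place of 1 with dim genes left out, because Fxr2 passed (adjusted p = 0.0493). With each array left out in turn, members called ranged from 1 to 2 for the interaction, 2 to 3 for HO2 knockdown against control and 3 to 4 for combined against HO2 knockdown, and stayed at 1 in the other 3 comparisons.

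Replicate deviations of same-numbered arrays correlated across genes with r from -0.261 to 0.122, so the numbers were not taken to pair the arrays. With the replicate block 3 members were called in HO2 knockdown against control, 4 in combined against HO2 knockdown and 1 in each other comparison, as without it, and 6431 genes in HO2 knockdown against control, against 6620 without it. Counts over all genes moved more, from 845 to 4744 for the interaction (2442 as reported), from 1323 to 2937 for HO1 knockout against control (2557) and from 3827 to 8682 for combined against HO2 knockdown (6775). The causes were not tested. With 2 arrays a group and no detection calls, changes in dim probe sets such as Fmr1os may be missed.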
